A study of Mus musculus with 16 samples.

Results

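The genes described here are 9 retinoid genes, Rdh9, Rdh16, Rdh7, Rdh11, Rdh10, Aldh1a1, Aldh1a7, Lrat and Rbp4, out of the 24984 genes counted in every library. They were chosen by name from values measured in these same libraries, because results of shFos against NT, including the lower Rdh9 in liver, were already known. Their response to shFos is therefore given as a description, with fold changes and standard errors and no test. The comparison of kidney with liver was not used in that choice and is tested, except for Rdh7, for the reason given with its values.

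Retinol (vitamin A) leaves the liver bound to retinol-binding protein 4, is stored as retinyl esters, and is oxidised in sequence to retinal and to retinoic acid, the ligand of the retinoic acid receptors. Retinol dehydrogenases carry out the reversible step between retinol and retinal, retinal dehydrogenases the irreversible step to retinoic acid, and lecithin retinol acyltransferase makes the esters. In liver, hepatocytes secrete the carrier and stellate cells hold most of the ester store, and in kidney the proximal tubule recovers filtered carrier through megalin (Lrp2).

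The libraries came from kidney and liver of wild-type C57BL/6 mice labelled 24 months old, female by the study's methods, which had received an AAV8 vector intravenously. By the same methods the mice were injected at 24 months of age and the tissues were collected some months later, which the labelled age does not show. AAV8 is an adeno-associated virus serotype that reaches hepatocytes well. Its cargo was a hairpin that targets Fos (shFos) or a non-targeting control (NT), so the controls also carried a virus, and the promoter of the vector was not given in the sources used here. Each combination of tissue and vector had 4 libraries, 16 in all, with 14194543 to 15534665 counts on genes in kidney and 16652150 to 18300277 in liver. The labels do not say which kidney and liver libraries came from the same mouse.

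Levels below are in CPM, read counts scaled to sequencing depth, with TMM factors over all 16 libraries. Fos, a subunit of the AP-1 transcription factor and the target of the hairpin, was at 4.73, 3.66, 2.99 and 3.83 CPM in the NT kidneys (replicates 1 to 4) and at 1.85, 2.95, 2.72 and 1.61 CPM in the shFos kidneys, all below the NT ones. In liver it was at 1.57, 3.34, 5.19 and 4.04 CPM in NT and at 2.31, 2.13, 3.86 and 1.97 CPM in shFos, which overlapped. By edgeR's quasi-likelihood test, Benjamini-Hochberg adjusted over all genes, the Fos change was not called in kidney (log2 fold change -0.73 ± 0.25 SE, adjusted p = 0.0955) or in liver (-0.47 ± 0.38 SE, adjusted p = 0.778), and DESeq2 called it in kidney only.

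The tissue labels held: the summed level of 8 proximal tubule markers was 4125 to 26172 CPM in kidney and 1.63 to 7.90 CPM in liver, and that of 7 hepatocyte markers was 68780.0 to 269670.0 CPM in liver and 221 to 991 CPM in kidney. Some libraries stood apart before any comparison. Kidney NT replicate 4 had the lowest proximal tubule sum of the 8 kidneys, 4125 CPM against 10628 to 11926 CPM in the other NT kidneys. Liver NT replicate 4 had the lowest hepatocyte sum, 68780.0 CPM against 169670.0 to 269670.0 CPM in the other NT livers. That sum is led by Alb, at 38702 CPM in replicate 4 and 146360 to 237910 CPM in the other NT livers. The other hepatocyte markers were mixed in replicate 4. Apoa1 and Cps1 were the highest of the NT livers there, Serpina1c and Cyp2e1 the lowest, and Apob and Tat in between. In the kidney comparison of shFos with NT itself, the edgeR calls over all genes depended on shFos replicate 1. EdgeR called 0 of 14892 genes (0%) with it and 4126 of 15006 (27.5%) without it. With it, 4747 genes had an unadjusted p under 0.05, and DESeq2 called 2663 genes (17.9%).

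Rdh9, Rdh16 and Rdh7 are short-chain dehydrogenases that act on retinols and hydroxysteroids, and they lie in a cluster of 8 related genes that spans 152 kb (GRCm38, chr10:127759721-127911761). Rdh9 lies at chr10:127776386-127792697 and Rdh16 at chr10:127801152-127846565, both on the forward strand. Rdh7 lies at chr10:127884028-127888817 on the reverse strand. Because reads of near-identical copies can be lost or misplaced, the likeness of their coding sequences bears on every value of these genes. The first 120 coding bases of each, which lie in a single coding exon, are shown for that reason (GENCODE M21, read 5′ to 3′ on the gene's strand). In Rdh9 the capitals mark the 11 bases at which either of the other genes differs, and in the other two they mark the bases that differ from Rdh9, 10 in Rdh16 and 8 in Rdh7.
Rdh9 (chr10:127776485-127776604, forward): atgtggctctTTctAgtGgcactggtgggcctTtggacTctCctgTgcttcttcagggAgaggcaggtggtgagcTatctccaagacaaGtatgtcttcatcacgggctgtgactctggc
Rdh16 (chr10:127801198-127801317, forward): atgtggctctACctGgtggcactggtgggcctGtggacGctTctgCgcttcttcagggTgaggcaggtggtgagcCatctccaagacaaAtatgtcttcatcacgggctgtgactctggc
Rdh7 (chr10:127888494-127888613, reverse): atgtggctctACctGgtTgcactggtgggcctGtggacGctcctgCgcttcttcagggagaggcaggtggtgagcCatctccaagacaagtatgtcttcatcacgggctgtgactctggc

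Over the whole coding sequence Rdh9 and Rdh16 were identical at 916 of 951 aligned bases (96.3%), with a longest identical run of 229 bases. Rdh9 and Rdh7 were identical at 85.9%, and Rdh16 and Rdh7 at 86.9%. Of all stretches of 50 bases in the Rdh9 transcript, 14.8% were also in the Rdh16 transcript and 1.51% in the Rdh7 transcript. The deposited line for reads with more than 1 alignment holds 0 in all libraries, and how such reads were treated before counting is not given in the sources used here. The Rdh9 span also overlaps Rdh16f1 on the same strand, a gene not analysed here, and Rdh16 overlaps the pseudogene Rdh18-ps. Values of Rdh9 and Rdh16 are uncertain to that extent.

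Aldh1a1, a retinal dehydrogenase, and its close paralog Aldh1a7 are neighbours on chromosome 19, at chr19:20492715-20643465 (forward) and chr19:20692953-20727562 (reverse), 49487 bases apart. Their coding sequences were identical at 1377 of 1503 bases (91.6%), with 7.53% of the 50-base stretches of the Aldh1a1 transcript also in Aldh1a7. Here the first 120 coding bases of each, which span 2 coding exons, have the 10 differing bases in capitals.
Aldh1a1 (chr19:20602012-20610966, forward): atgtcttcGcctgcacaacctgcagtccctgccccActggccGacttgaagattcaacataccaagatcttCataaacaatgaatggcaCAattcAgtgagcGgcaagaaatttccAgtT
Aldh1a7 (chr19:20727009-20727512, reverse): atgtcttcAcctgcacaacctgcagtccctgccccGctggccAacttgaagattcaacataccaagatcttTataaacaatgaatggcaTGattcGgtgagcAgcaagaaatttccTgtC

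The coding sequence of Rdh11 was identical at 70.5% of aligned bases with that of Rdh12 and at 58.1% with that of Rdh10, and shared no stretch of 50 bases with either. Lrat and Rbp4 were not compared with other genes. Rdh11 lies at chr12:79174337-79192293 (reverse), Rdh10 at chr1:16105774-16133734 (forward), Lrat at chr3:82892579-82903973 (reverse) and Rbp4 at chr19:38116629-38125281 (reverse). Lrat overlaps the antisense gene Rbm46os, and Aldh1a1 overlaps C730002L08Rik and the pseudogene Gm6684 on the opposite strand. Strand was not used in counting, so reads of these partners cannot be told apart.

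Because the treatment targeted Fos, the 250 bases before each RefSeq start were searched for the AP-1 motif TGACTCA on both strands (GRCm38.p6, 12 windows for 8 members, none for Rdh10). It was found in 3 of the 12 windows, 1 each of Rdh9, Aldh1a1 and Rbp4, and in 1466 of all 32851 windows (4.46%). The Rdh9 window (chr10:127776155-127776404, forward) is shown whole because Rdh9 was the member whose liver groups did not overlap. Its capitals mark an AGGTCA, the core of the motifs bound by nuclear receptors such as the retinoic acid receptors, and an AP-1 motif read on the other strand, which starts 61 bases before the RefSeq start.
Rdh9: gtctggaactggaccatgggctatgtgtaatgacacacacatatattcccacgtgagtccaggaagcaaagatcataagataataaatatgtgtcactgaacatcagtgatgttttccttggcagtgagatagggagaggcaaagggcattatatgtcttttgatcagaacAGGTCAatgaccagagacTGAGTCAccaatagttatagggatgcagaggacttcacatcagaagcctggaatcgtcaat
The AP-1 motifs of the other genes started 57 bases before an upstream Aldh1a1 start and 142 bases before the Rbp4 start, and are shown with 15 bases on each side.
Aldh1a1 (chr19:20492511-20492547, forward): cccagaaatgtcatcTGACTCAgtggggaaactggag
Rbp4 (chr19:38124932-38124968, reverse): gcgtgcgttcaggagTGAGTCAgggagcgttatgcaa

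AGGTCA was in 1 window each of Rdh9, Rdh16, Rdh7 and Rdh11 and in 14.0% of all windows. No member window held it as a direct repeat spaced by 1 base (DR1, 0.033% of all windows) or by 5 bases (DR5, 0.009%). The cyclic AMP response element (CRE, 1.55% of all windows) and the D-box bound by clock output factors (0.819%) were in no member window either. These are matches of letters in short windows, and no binding was measured in these libraries.

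Liver held most of the retinoid transcripts of this set. In the NT libraries 7 of 9 members were higher in liver than in kidney by edgeR's quasi-likelihood test (Benjamini-Hochberg adjusted p under 0.05), where 4123 of all 14875 genes tested (27.7%) were called in that direction. The same 7 were called in the shFos libraries, where 4793 of 14628 genes (32.8%) were. Rdh16 and Rdh10 were called in neither. Of the 7, Rdh7 passed the count filter only through liver, so its call is not read as a test. With scaling by library totals alone the median of all genes moved from 0.04 to 1.08 on the log2 scale towards kidney, the calls over all genes went from 4808 higher in kidney and 4123 higher in liver to 10932 and 1357, and the 7 were still called higher in liver.

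**Figure D1:**
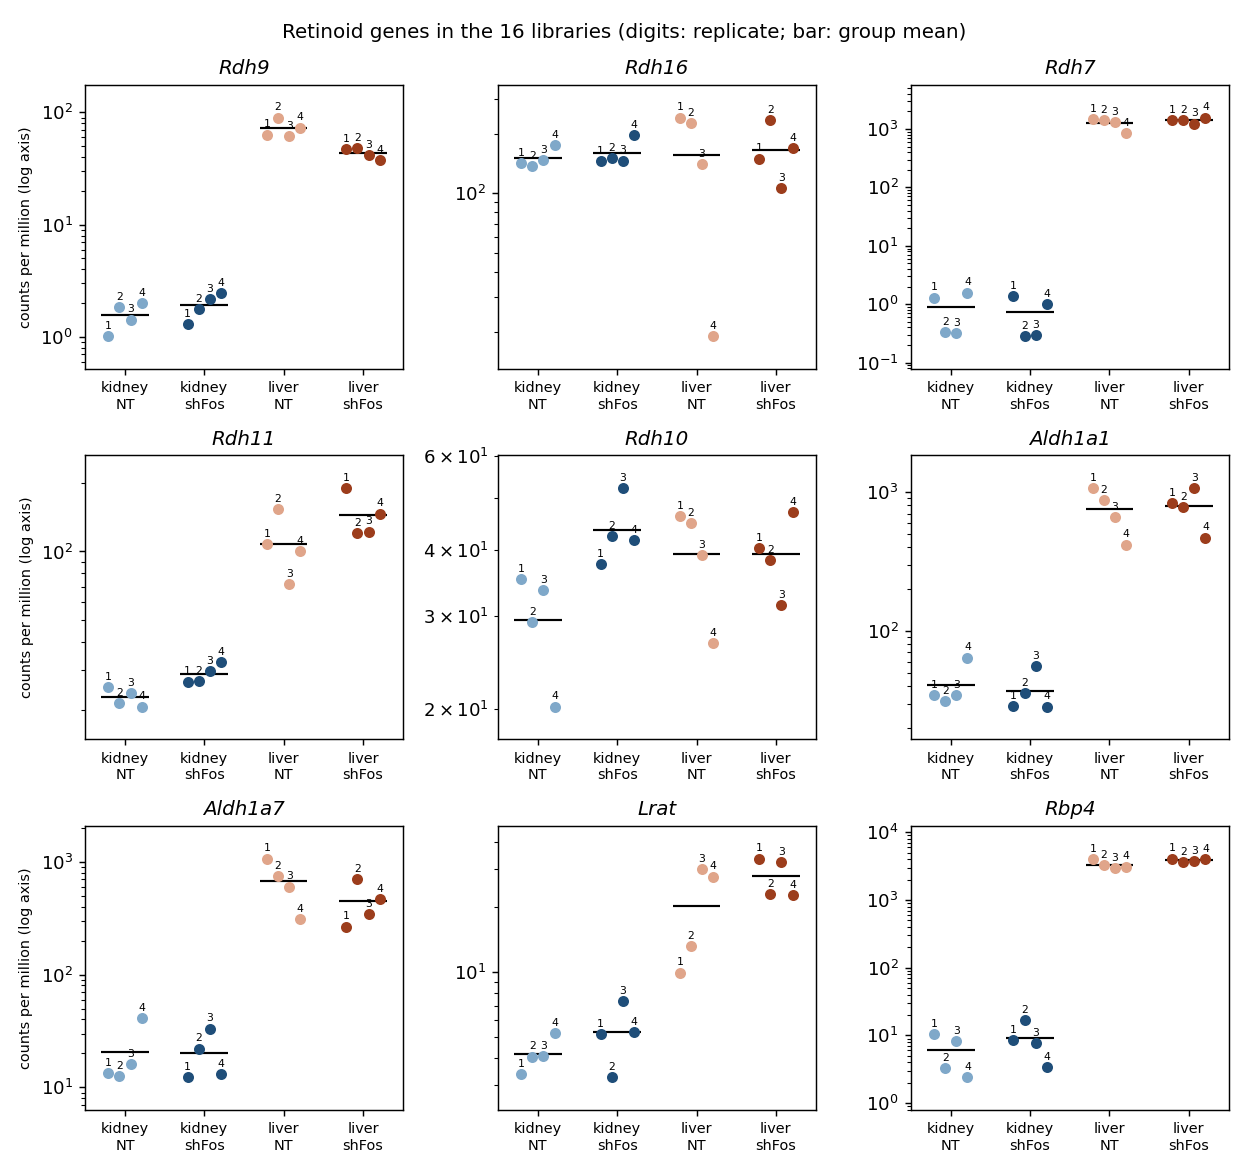
Levels in CPM on a log axis in each of the 16 libraries for the 9 genes, 1 panel a gene, with replicate numbers above the points and a bar at the mean of each group of 4. Rbp4, Rdh7, Rdh9, Aldh1a1 and Aldh1a7 were far higher in every liver than in every kidney, Rdh16 lay at about the same level in both with liver NT replicate 4 at 19.0 CPM, and the Rdh9 livers of shFos lay below all those of NT.

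Rbp4, the plasma carrier of retinol, was the most abundant, at 4019, 3238, 2965 and 3118 CPM in the NT livers and 4081, 3585, 3783 and 4015 CPM in the shFos livers. The kidneys had 10.5, 3.33, 8.19 and 2.43 CPM in NT and 8.58, 17.0, 7.72 and 3.37 CPM in shFos. Liver was 540-fold higher in NT (log2 kidney against liver -9.08, 95% confidence interval -10.50 to -7.65, edgeR adjusted p = 2.89e-06). Within kidney the level varied 4.31-fold between NT libraries and 5.03-fold between shFos libraries, against 1.36-fold and 1.14-fold in liver.

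Rdh7 showed an even wider gap. It was at 1478, 1421, 1311 and 857 CPM in the NT livers and 1408, 1420.3, 1242 and 1566 CPM in the shFos livers. In the kidneys 7 to 34 reads in NT and 6 to 30 reads in shFos gave 1.30, 0.328, 0.322 and 1.59 CPM and 1.38, 0.285, 0.297 and 1.02 CPM. The log2 difference was -10.47 (interval -11.94 to -9.002) in NT and -10.86 (interval -11.91 to -9.81) in shFos. Rdh7 passed the count filter of these comparisons only through the livers, where it was high. Its p-values are therefore left out, and the size of the difference rests on few kidney reads. In kidney, replicates 1 and 4 of each treatment were above replicates 2 and 3.

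Of the 7 hepatocyte markers, Tat, Serpina1c and Apoa1 also had replicates 1 and 4 above replicates 2 and 3 in both treatments. Alb and Cps1 did so in shFos only, and Apob and Cyp2e1 in neither. Tat, a hepatocyte enzyme, was at 3.24, 0.141, 1.01 and 1.87 CPM in the NT kidneys and 2.31, 0.285, 0.148 and 1.12 CPM in the shFos kidneys. Serpina1c, a secreted hepatocyte protein, was at 5.14, 2.06, 2.62 and 7.89 CPM in NT and 6.23, 1.47, 1.53 and 3.96 CPM in shFos. Alb was at 145, 22.1, 53.8 and 29.3 CPM in the NT kidneys, where replicate 3 was above replicate 4, and at 138, 25.3, 35.9 and 59.4 CPM in the shFos kidneys. In the shFos kidneys Cyp2e1 was at 65.9, 93.7, 118 and 66.0 CPM and Apob at 237, 476, 833 and 501 CPM, with replicate 1 the lowest of both. The mean NT kidney level was 0.0698% of the liver level for Rdh7 and 0.183% for Rbp4, beside 0.0435% for Alb, 0.0491% for Apoa1, 0.127% for Serpina1c and 0.0436% for Tat. All 7 hepatocyte markers averaged above 0.2 CPM in kidney, with a sum led by Apob and Cyp2e1 of 221 to 683 CPM in NT and 461 to 991 CPM in shFos. The part of liver RNA in the kidney values of Rdh7 was not tested.

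Rdh9 was at 63.4, 89.8, 61.7 and 73.1 CPM in the NT livers, against 1.02, 1.83, 1.43 and 2.01 CPM in the NT kidneys (22 to 43 reads). The log2 difference was -5.51 (interval -6.03 to -4.98, edgeR adjusted p = 1.77e-07) in NT and -4.50 (interval -4.91 to -4.09, edgeR adjusted p = 9.84e-09) in shFos. Its kidney level was 2.18% of the liver level in NT, above those of Alb and Tat and below that of Apob (3.98%).

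Aldh1a1 and Aldh1a7 were 18.3-fold and 32.7-fold higher in NT liver than in NT kidney (log2 -4.19, interval -5.03 to -3.36, and -5.03, interval -6.26 to -3.81, edgeR adjusted p = 1.29e-05 and 4.85e-05). Rdh11, a membrane retinol dehydrogenase that prefers the reduction of retinal, was 4.72-fold higher in NT liver (log2 -2.24, interval -2.72 to -1.75, edgeR adjusted p = 2.28e-05). Lrat, the esterifying enzyme, was 4.83-fold higher in NT liver (log2 -2.27, interval -3.11 to -1.43, edgeR adjusted p = 0.000625). In shFos the log2 differences of these 4 genes were -4.41, -4.46, -2.32 and -2.40, each called by edgeR.

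Rdh16 and Rdh10 were the exceptions. Rdh16 was at 142, 137, 147 and 175 CPM in the NT kidneys and 241, 225, 140.3 and 19.0 CPM in the NT livers, where replicate 4 was far below the rest. The log2 difference was -0.05 (interval -1.36 to 1.27, edgeR adjusted p = 0.95) in NT and -0.04 (interval -0.52 to 0.44, edgeR adjusted p = 0.874) in shFos. Without liver NT replicate 4 the NT difference was -0.45, and without liver NT replicate 1 or 2 it was 0.20 or 0.15.

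Rdh10, the dehydrogenase that supplies most retinal in the embryo, was at 35.1, 29.1, 33.6 and 20.2 CPM in the NT kidneys and 46.2, 44.9, 39.1 and 26.7 CPM in the NT livers. The log2 difference was -0.40 (interval -0.90 to 0.10, edgeR adjusted p = 0.149) in NT and 0.15 (interval -0.15 to 0.46, edgeR adjusted p = 0.341) in shFos. In NT, same-numbered kidneys and livers were taken as pairs, which the labels do not state. The fit with that replicate block called Rdh10 (log2 -0.40 ± 0.10 SE, edgeR adjusted p = 0.0119). Replicate 4 was the lowest of both tissues, and without liver NT replicate 4 the difference was -0.58 and called by edgeR. With library totals alone its direction turned and edgeR called it higher in kidney (log2 0.65).

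**Figure D2:**
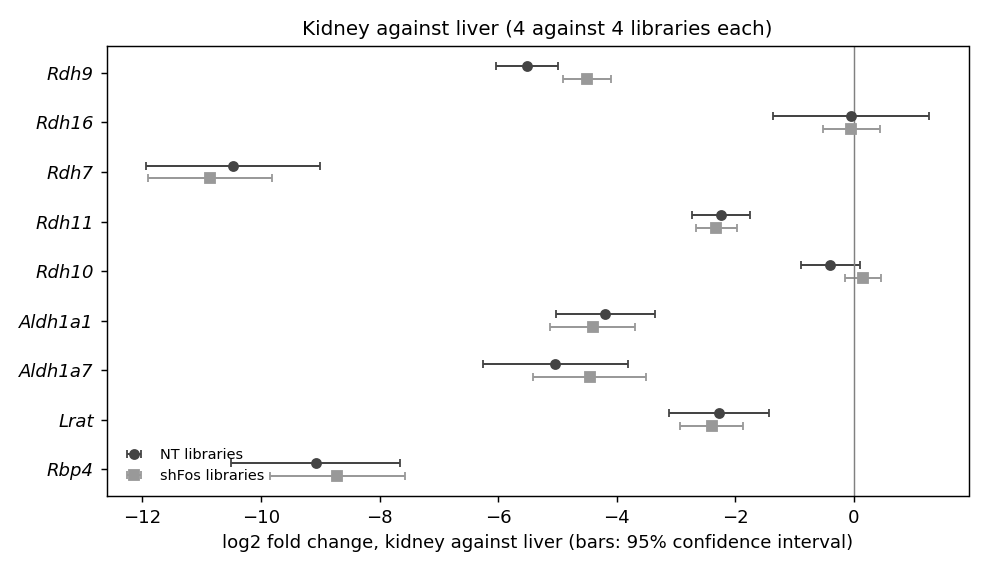
The log2 fold change of kidney against liver for the 9 genes, in the NT libraries (circles) and in the shFos libraries (squares), with 95% confidence intervals from edgeR and a line at 0. The intervals of 7 genes lay wholly below 0 in both sets, from Rdh7 at -10.47 and -10.86 to Rdh11 at -2.24 and -2.32, and those of Rdh16 and Rdh10 crossed 0.

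Levels of different genes were compared per length, as CPM per kb of exon. In the NT livers the order was Rbp4 (2483 ± 350 CPM per kb, SD, n = 4), Rdh7 (755 ± 168), Aldh1a7 (329 ± 152), Aldh1a1 (153 ± 56.2), Rdh11 (31.3 ± 9.75), Rdh16 (25.1 ± 16.3), Rdh9 (20.1 ± 3.58), Rdh10 (9.43 ± 2.15) and Lrat (3.78 ± 1.89). Rbp4 stood clear of Rdh7, Aldh1a1 of Rdh11, Rdh9 of Rdh10, and Rdh10 of Lrat, while the ranges of all other neighbours in the order overlapped.

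In the NT kidneys Rdh16 led at 24.2 ± 2.76 CPM per kb (SD, n = 4) and stood clear of the next gene. Aldh1a7 (10.1 ± 6.57), Aldh1a1 (8.32 ± 3.15), Rdh10 (7.09 ± 1.61), Rdh11 (6.60 ± 0.609) and Rbp4 (4.55 ± 2.87) each overlapped the next in the order, and Rbp4 stood clear of Lrat. Lrat (0.784 ± 0.143), Rdh7 (0.527 ± 0.391) and Rdh9 (0.437 ± 0.123) were lowest and overlapped. With the longest transcript in place of all exons, 12 of the 18 places in these orders were the same, and Rdh16 led in kidney and Rbp4 in liver as before.

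**Figure D3:**
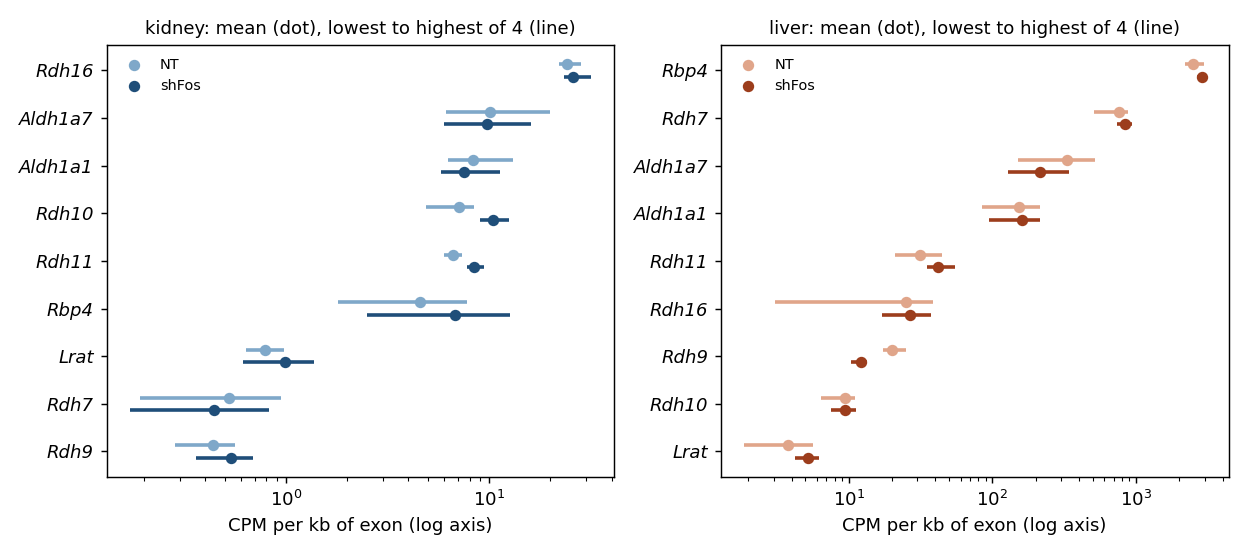
CPM per kb of exon on a log axis for the 9 genes in kidney (left) and liver (right), in the order of the NT means, with the mean of 4 libraries as a dot and the range from lowest to highest as a line, NT in the light and shFos in the dark colour. Rdh16 led in kidney at 24.2 CPM per kb and Rbp4 in liver at 2483 CPM per kb in the NT groups.

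For shFos against NT, edgeR called 0 of 14892 genes in kidney (0%, smallest adjusted p = 0.066) and 0 of 13144 in liver (0%, 886 genes at an unadjusted p under 0.05), so no member was called. DESeq2 called 2663 genes in kidney (17.9%), Rdh11 and Rdh10 among them, and 36 in liver (0.274%), Rdh9 among them. In edgeR without kidney shFos replicate 1, Rdh11 was among the genes called. The groups did not overlap for 3 member values: every shFos kidney was above every NT kidney for Rdh11 and Rdh10, as for 9.90% of all genes, and every shFos liver was below every NT liver for Rdh9, as for 1.33%. No member was below in kidney (7.29% of all genes) or above in liver (3.23%). The members were chosen with these contrasts known, and nothing is read from these counts.

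Among the dehydrogenases of the chromosome 10 cluster, Rdh9 was lower in the shFos livers, at 47.4, 47.9, 41.5 and 37.3 CPM, than in the NT livers given above. The log2 fold change was -0.74 ± 0.14 (SE), from 72.0 ± 12.8 CPM to 43.5 ± 5.06 CPM (SD, n = 4). The highest shFos liver, at 47.9 CPM, was below the lowest NT liver, at 61.7 CPM. Leaving out each library in turn gave log2 fold changes of -0.80 to -0.62. In the shFos kidneys Rdh9 was at 1.29, 1.76, 2.18 and 2.46 CPM, which overlapped the NT kidneys (log2 0.30 ± 0.30 SE).

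Beside the lower Rdh9 values in liver, 0 of 8 pericentral hepatocyte markers had fold changes above 0 (median log2 -0.29, no groups apart), with a sum of 4879 to 9854 CPM in NT and 5220.1 to 6614 CPM in shFos. All 7 periportal markers tested were above 0 (median log2 0.67, 2 not overlapping), with a sum of 7802 to 11246 CPM in NT and 11778 to 16893 CPM in shFos, where Ass1 averaged under 0.2 CPM in NT. Of the 7 hepatocyte markers 4 were above 0 (median log2 0.05, 1 not overlapping), and of 7 Kupffer cell markers 0 were (median log2 -0.68, none apart). The hepatocyte marker that did not overlap was Cps1, which is also in the periportal list and counted there. Cyp2e1 is in both the hepatocyte and the pericentral list. The markers that did not overlap had every shFos liver above every NT liver, as did 3.23% of all genes. Of 7 lymphocyte markers 3 were above 0 (median log2 -0.12), of 6 endothelial markers 3 (median 0.12), and of 14 core clock genes 6 (median -0.17). EdgeR called 0 of these genes, and their part in the Rdh9 values was not tested.

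Rdh16 and Rdh7 had groups that overlapped in both tissues. Rdh16 in the shFos livers was at 149.7, 234, 106 and 169.6 CPM, within the NT range (log2 0.06 ± 0.62 SE, and -0.32 without liver NT replicate 4). In the shFos kidneys Rdh16 was at 146, 150.1, 146 and 197 CPM, of which replicate 4 stood apart (log2 0.10 ± 0.13 SE). Rdh7 differed little between the liver groups (log2 0.14 ± 0.20 SE, and -0.02 without liver NT replicate 4), and in kidney, at under 2 CPM in every library, the error was large (log2 -0.23 ± 0.68 SE).

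Of the other genes of the cluster in the pathway lists, Rdh1 and Rdh16f2 were tested in liver, and both values were below 0. Rdh16f2, the most abundant, had a mean of 389 CPM per kb of exon in the NT livers and 383 CPM per kb in the shFos livers (log2 -0.04 ± 0.30 SE). Rdh1 was at 2.58, 3.34, 1.61 and 0.524 CPM in the NT livers and at 1.04, 1.03, 1.07 and 0.942 CPM in the shFos livers (log2 -0.98 ± 0.49 SE, edgeR adjusted p = 0.734). The other NT livers were above every shFos liver for Rdh1, and liver NT replicate 4, also the lowest for Rdh16, was below them, at 7 to 41 reads in NT and 11 to 13 reads in shFos.

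Rdh11 and Rdh10 were the dehydrogenases with higher values in the shFos kidneys. Rdh11 was at 25.3, 21.4, 23.7 and 20.7 CPM in the NT kidneys and at 26.7, 26.8, 29.6 and 32.6 CPM in the shFos kidneys, a log2 fold change of 0.35 ± 0.11 (SE). The groups were separate but close, with 25.3 CPM the highest NT value and 26.7 CPM the lowest shFos value. In liver Rdh11 was at 107, 153, 72.1 and 100.3 CPM in NT and 190.1, 120.2, 122 and 147 CPM in shFos, which overlapped (log2 0.41 ± 0.23 SE).

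Rdh10 was at 37.5, 42.5, 52.2 and 41.6 CPM in the shFos kidneys, above the NT kidneys given above (log2 0.56 ± 0.18 SE, from 29.5 ± 6.69 CPM to 43.5 ± 6.22 CPM, SD, n = 4). Kidney NT replicate 4 had the lowest Rdh10 value, and the log2 fold change was 0.41 without it. In the shFos livers Rdh10 was at 40.2, 38.2, 31.4 and 47.0 CPM, which overlapped the NT livers (log2 -0.01 ± 0.19 SE). Beside these kidney values, all 8 proximal tubule markers had fold changes above 0 (median log2 0.60, 2 with groups that did not overlap), as did all 6 endothelial markers (median 0.33, 2 not overlapping) and all 5 podocyte markers (median 0.82, 1 not overlapping). Distal tubule and collecting duct markers lay the other way (2 of 8 above 0, median log2 -0.23). By median, so did lymphocyte markers (1 of 7, -1.20) and Kupffer cell and macrophage markers (1 of 4 tested, -0.34). Yet the lymphocyte sum was 10.6 to 197 CPM in NT and 138 to 216 CPM in shFos, and 1 lymphocyte marker had every shFos kidney above. Core clock genes were lower by median (5 of 14, -0.71), with every shFos kidney above for 2 and below for 4. Over all genes in kidney, 9.90% were so placed above and 7.29% below. EdgeR called 0 genes of these lists in kidney. Fewer cells of a type and less RNA per cell cannot be told apart in whole tissue, and the part of these markers in the Rdh11 and Rdh10 values was not tested.

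Both Aldh1a1 and its paralog Aldh1a7 varied widely within each group. Aldh1a1 was at 1064, 869, 661 and 418 CPM in the NT livers and 837, 780.4, 1066 and 469 CPM in the shFos livers (log2 0.06 ± 0.33 SE). Aldh1a7 was at 1063, 748, 601 and 310 CPM in the NT livers and 266, 704, 345 and 465 CPM in the shFos livers (log2 -0.63 ± 0.40 SE). The Aldh1a7 groups overlapped, and its largest spread within a group, 3.43-fold in the NT livers, was wider than the difference between the group means.

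In kidney Aldh1a1 was at 34.5, 31.1, 34.4 and 64.3 CPM in NT and 28.6, 35.7, 55.6 and 28.5 CPM in shFos (log2 -0.13 ± 0.29 SE). Aldh1a7 was at 13.3, 12.7, 16.1 and 41.0 CPM in NT and 12.4, 22.1, 33.2 and 13.2 CPM in shFos (log2 -0.02 ± 0.44 SE). The paralogs were highest in the same kidneys, NT replicate 4 and shFos replicate 3, which also had the lowest proximal tubule sums, 4125 and 8508 CPM against 10628 to 26172 CPM in the other kidneys. That sum is led by Kap, and without Kap it was 2998 CPM in NT replicate 4, still the lowest of all kidneys, and 7502 CPM in shFos replicate 3, above all NT kidneys (2998 to 6032 CPM) and within the shFos range (5898 to 7931 CPM). Without kidney NT replicate 4 the log2 fold changes were 0.16 and 0.53, with the direction turned. The 2 genes share coding stretches, as shown above, and the part of shared reads was not tested.

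Lrat was at 9.97, 13.3, 30.1 and 27.6 CPM in the NT livers and 33.5, 22.9, 32.4 and 22.8 CPM in the shFos livers (log2 0.45 ± 0.35 SE). NT replicates 1 and 2 were below every shFos liver, and NT replicates 3 and 4 lay within the shFos range. The other markers of hepatic stellate cells mostly lay higher too: 9 of 10 had fold changes above 0 (median log2 0.46), and edgeR called 0. Every shFos liver was above every NT liver for 4 of them, as for 3.23% of all genes. Reln, a stellate cell gene, was at 59.8, 55.7, 73.8 and 32.5 CPM in the NT livers and 76.1 to 89.3 CPM in the shFos livers. NT replicate 4 was thus the lowest NT liver for Reln, while its Lrat was above that of NT replicates 1 and 2. Lhx2, another gene of that list, overlapped, at 5.92 to 8.40 CPM in NT and 6.08 to 8.69 CPM in shFos. The stellate sum without Lrat was 496 to 679 CPM in NT and 659 to 876 CPM in shFos, all 10 averaged above 0.2 CPM in both groups, and the part of stellate cells in the Lrat values was not tested. In kidney Lrat was at 3.38, 4.08, 4.10 and 5.23 CPM in NT and 5.17, 3.28, 7.37 and 5.30 CPM in shFos (log2 0.34 ± 0.26 SE).

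Rbp4 in liver had a mean of 3335 ± 470 CPM in NT and 3866 ± 227 CPM in shFos (SD, n = 4), and NT replicate 1 lay within the shFos range (log2 0.20 ± 0.18 SE). In kidney the log2 fold change was 0.58 ± 0.55 (SE), and it was 0.11 without shFos replicate 2, the highest kidney at 17.0 CPM. That kidney also had the highest sum of 5 adipocyte markers, 374 CPM, against 34.7 to 204 CPM in the other 7 kidneys. The next highest sum, 204 CPM, was in kidney NT replicate 4, which had the lowest Rbp4 of all kidneys (2.43 CPM). Adipocytes also make Rbp4. All 5 averaged above 0.2 CPM in kidney, edgeR called 0 of them, and their part in the kidney Rbp4 values was not tested.

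**Figure D4:**
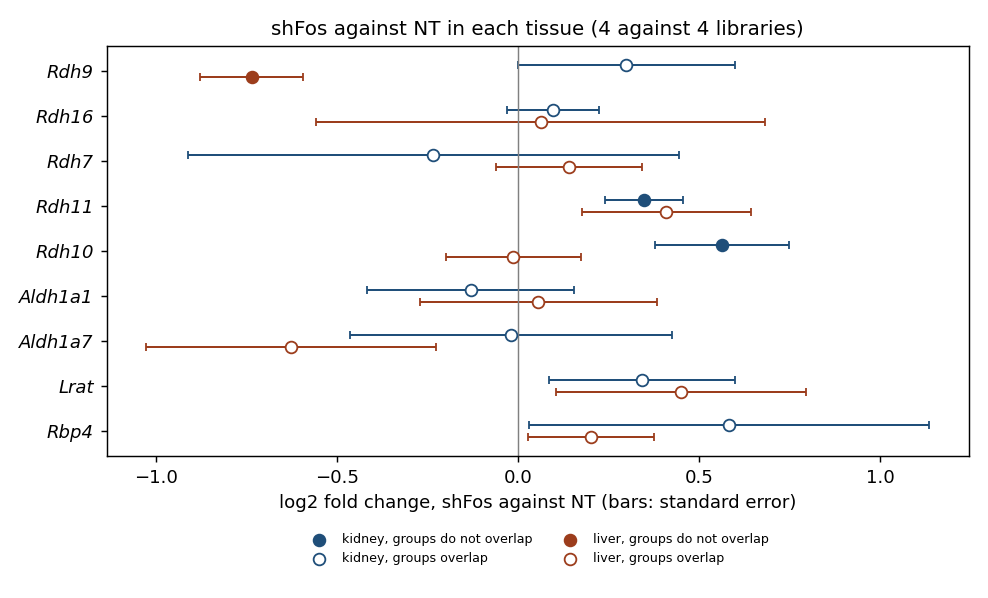
The log2 fold change of shFos against NT for the 9 genes in kidney (blue) and liver (brown), with standard errors from edgeR; filled points are genes whose 4 shFos and 4 NT libraries did not overlap. Filled points are Rdh9 in liver at -0.74 and Rdh11 and Rdh10 in kidney at 0.35 and 0.56, and the other values overlapped between groups.

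Over the 9 members the median log2 fold change was 0.30 in kidney, beside 0.00 over all genes tested, and 0.06 in liver, beside -0.01, with 6 of 9 above 0 in each tissue. For the shFos change in kidney minus that in liver, edgeR called 0 of 15421 genes (0%), while 2482 had an unadjusted p under 0.05. The member values ran from -0.39 ± 0.67 (SE) for Rdh7 to 1.01 ± 0.29 (SE) for Rdh9, and Rdh10 had 0.56 ± 0.27 (SE). DESeq2 called 282 genes (1.83%) and edgeR without kidney shFos replicate 1 called 1246 (7.99%), Rdh9 among them in both. Nothing is read from these calls, since the Rdh9 change in liver was known when it was chosen.

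The rest of the retinoid pathway was followed through 7 lists that held 61 other genes, 60 of them in the files and 45 tested in kidney and 46 in liver. No gene of the lists was called by edgeR in either tissue, where 13 of 45 in kidney and 2 of 46 in liver had an unadjusted p under 0.05, beside 31.9% and 6.74% of all genes. The groups did not overlap for Lrp2, Ces1d and Ces1e in kidney and for Ttr in liver, all higher in shFos, beside 9.90% of all genes so placed in kidney and 3.23% in liver. The median log2 fold change of the tested genes was 0.08 in kidney and 0.11 in liver.

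Among carriers and receptors, Lrp2 (megalin) was at 1575, 1178, 1801 and 832 CPM in the NT kidneys and 1940, 2386, 2179 and 2729 CPM in the shFos kidneys (log2 0.78 ± 0.24 SE, edgeR adjusted p = 0.0781). Lrp2 is itself a proximal tubule marker, and kidney NT replicate 4 was lowest. Ttr, which binds Rbp4 in plasma, was at 5897, 5971, 6463 and 2552 CPM in the NT livers and 11015, 6905, 12082 and 8510.3 CPM in the shFos livers (log2 0.87 ± 0.33 SE, edgeR adjusted p = 0.715). In kidney the Ttr value was lower in shFos (log2 -0.39 ± 0.15 SE, edgeR adjusted p = 0.115). Fabp5, which carries retinoic acid to other nuclear receptors, had log2 0.87 ± 0.31 (SE) in liver (edgeR adjusted p = 0.714), and Stra6l, a relative of the Rbp4 receptor that liver uses, had 0.26 ± 0.21 (SE). Of the 7 genes of this list tested, 5 were above 0 in kidney, and 5 of 6 in liver.

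The retinyl ester and carotenoid list held 2 of the 3 separated kidney genes. Ces1d, a carboxylesterase that can hydrolyse retinyl esters, was at 119.8, 61.0, 82.0 and 68.0 CPM in the NT kidneys and 129, 171, 274 and 136 CPM in the shFos kidneys (log2 1.11 ± 0.29 SE, edgeR adjusted p = 0.0663). Ces1e, a related enzyme, was at 18.8, 10.04, 14.96 and 11.9 CPM in NT and 23.7, 20.6, 41.8 and 20.4 CPM in shFos (log2 0.94 ± 0.28 SE, edgeR adjusted p = 0.0748). Both were highest in kidney shFos replicate 3. Dgat2, with Ces1d the highest of the list per length in liver, had log2 0.46 ± 0.18 (SE, edgeR adjusted p = 0.129) in kidney and 0.04 ± 0.225 (SE) in liver. In liver Bco1, which cleaves beta-carotene to retinal, had log2 -0.47 ± 0.26 (SE) and the lipase Pnpla2 -0.47 ± 0.26 (SE), with groups that overlapped, and 7 of 11 genes of the list were above 0 in each tissue.

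Of the other dehydrogenases and reductases, 12 were tested in kidney and 13 in liver, and in none did the groups separate. Dhrs3, a retinal reductase that responds to retinoic acid, had log2 -0.28 ± 0.11 (SE, edgeR adjusted p = 0.112) in kidney and 0.34 ± 0.28 (SE) in liver. Dhrs4 had log2 0.24 ± 0.10 (SE) in kidney and Rdh5 0.37 ± 0.25 (SE) in liver. Adh1, an alcohol dehydrogenase that also takes retinol, was the highest of the list per length in liver, at 2067 CPM per kb in NT and 2474 CPM per kb in shFos (log2 0.25 ± 0.34 SE).

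Among the other retinal oxidases, Aldh8a1 had log2 0.48 ± 0.16 (SE, edgeR adjusted p = 0.0852) in kidney and Aox3 -0.95 ± 0.40 (SE, edgeR adjusted p = 0.143). Aldh1a3 was at 58.4 CPM in kidney shFos replicate 1 and at 1.499 to 4.90 CPM in the other 7 kidneys, so its kidney value (log2 2.22 ± 1.04 SE) rested on that library. Aldh1a2, the oxidase most used in the embryo, was at 14.8 to 26.4 CPM in the NT kidneys and 24.0 to 34.0 CPM in the shFos kidneys (log2 0.34 ± 0.20 SE), and it did not pass the count filter in liver.

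Clearance and response genes gave no common direction in kidney. Cyp2s1, an oxidase that clears retinoic acid, had log2 -0.42 ± 0.14 (SE, edgeR adjusted p = 0.0811) in kidney. Cyp26a1, the main inducible clearance enzyme of liver, ranged from 104 to 262 CPM in the NT livers and from 47.1 to 314 CPM in the shFos livers (log2 0.05 ± 0.60 SE). Cyp26b1 ranged 7.71-fold between NT kidneys, from 4.49 to 34.6 CPM. Cyp2c39, which also clears retinoic acid, was counted 0 times in every kidney and had log2 -0.33 ± 0.23 (SE) in liver. Of the 9 genes known to respond to retinoic acid, Lrat included, 5 of 8 tested were above 0 in kidney (median log2 0.27). In liver 7 of 7 were (median 0.34). The medians over all genes were 0.00 in kidney and -0.01 in liver. The groups of every gene of this list overlapped in both tissues, and edgeR called 0. Tgm2, a transglutaminase of this list, had log2 0.42 ± 0.16 (SE, edgeR adjusted p = 0.107) in kidney.

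All 6 retinoic acid and rexinoid receptors were tested. Rara had log2 -0.32 ± 0.11 (SE, edgeR adjusted p = 0.0936) in kidney and 0.14 ± 0.11 (SE) in liver, and Rarg -0.27 ± 0.13 (SE) in kidney. In liver 5 of the 6 were above 0, with Rarb at log2 0.40 ± 0.30 (SE) and Rxrb at 0.16 ± 0.11 (SE). Rxra, the highest per length in both tissues, had log2 0.14 ± 0.13 (SE) in kidney and -0.12 ± 0.14 (SE) in liver.

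**Figure D5:**
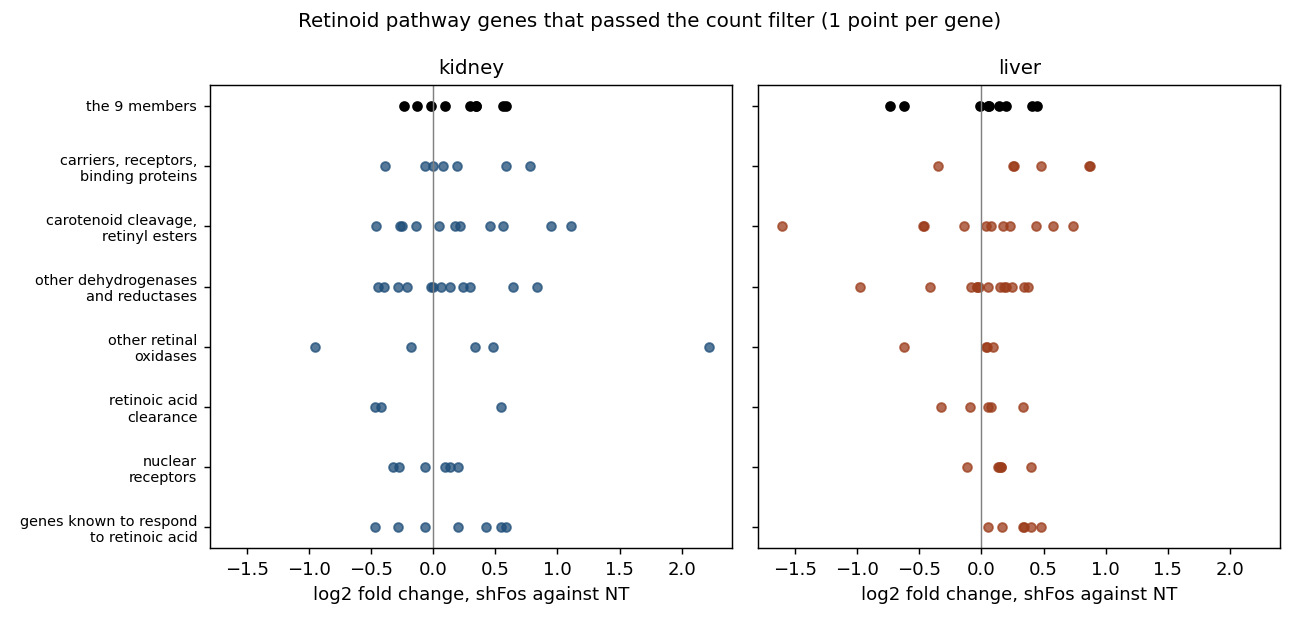
The log2 fold change of shFos against NT in kidney (left) and liver (right) for the 9 members (black, top row) and for the genes of the 7 retinoid lists that passed the count filter, 1 point a gene; a gene in several lists appears in each, and Lrat stands with the members. The values spread to both sides of 0 in kidney, with Aldh1a3 at 2.22 farthest, and edgeR called none of the list genes.

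Between tissues the lists differed more. In the NT libraries 36 of 50 list genes tested were called by edgeR, 29 higher in liver and 7 higher in kidney, beside 60.0% of all genes called, 27.7% higher in liver and 32.3% higher in kidney. Named after their values were seen, the 7 were Stra6 (the Rbp4 receptor), Lrp2, Rdh12, Rdh19, Aldh1a2, Cyp2s1 and Rarg. Aldh1a2 had log2 kidney against liver 5.15 ± 0.30 (SE), where its paralog Aldh1a1 had -4.19. Rdh19, which lies between Rdh16 and Rdh16f2 in the cluster, had 5.87 ± 0.88 (SE), where Rdh7 of the same cluster had -10.47. Chosen likewise, genes higher in liver included Hsd17b6 (log2 -11.28 ± 0.67 SE), Adh4 (-9.98 ± 0.45 SE) and Cyp26a1 (-6.90 ± 0.46 SE, edgeR adjusted p = 2.57e-06). In the NT kidneys Hsd17b6 had 1 to 4 reads and Adh4 1 to 2 reads. In the NT livers Rdh19 had 0 to 1 reads and Aldh1a2 4 to 11 reads. These genes passed the count filter only through the tissue where they were high. Their p-values are therefore left out, and the size of their differences rests on few reads.

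Each member was set beside the genes whose log2 CPM followed it most closely over the 8 liver libraries, the tissue where its NT mean was higher, among 12853 genes with a mean of at least 1 CPM. These points share a tissue, a depth range and the treatment groups, and the values are descriptions of 8 libraries. For Rdh7 the 3 closest were Aspdh, C8g and Agmat (Pearson r 0.995, 0.995 and 0.994), and for Rdh16 Slc25a13, Usp40 and Sugct (0.994, 0.99 and 0.989). Rdh7 and Rdh16 also followed each other (r 0.958) and Rdh10 (0.917 and 0.865), with liver NT replicate 4 the lowest for all 3. For Rdh9 the closest were Cdk10, Nras and Slc35c2 (0.955, 0.93 and 0.926), and r with Rdh16 was -0.19 and with Rdh7 -0.36.

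For Rdh11 the closest genes were Def8, Tor1aip1 and Pafah2 (r 0.979, 0.972 and 0.948), and for Rdh10 Ugt2b37, Slc25a46 and Retreg3 (0.984, 0.976 and 0.976). Aldh1a1 was followed most closely by Gm15348, Gpx6 and Rpgrip1l (0.98, 0.98 and 0.952), and Aldh1a7 by Adra2c, Tent5a and Slc16a6 (0.984, 0.965 and 0.964). Between the paralogs r was 0.36. Lrat had Stard8, Rnf6 and Shroom4 (0.953, 0.943 and 0.942) as its closest genes and r -0.84 with Aldh1a7. Rbp4 had Sigirr, Aacs and Ndufc1 (0.976, 0.967 and 0.964).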

How the data were processed

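Kidney and liver RNA of 16 libraries was sequenced, and the authors deposited raw counts per gene, 1 file a library with 24984 gene symbols. Per the labels and the study's methods the authors trimmed reads with Trimmomatic 0.39, aligned them to mm10 with HISAT2 2.2.1 and counted them with HTSeq 0.12.4. Lines for reads without a gene (22.1% to 26.7% of reads in kidney, 13.4% to 15.7% in liver) and for ambiguous reads (1.84% to 2.64%) were left out of library sizes. Before TMM scaling, a count of 0 allows up to 0.193 to 0.211 CPM in kidney and 0.164 to 0.180 CPM in liver (3 counts of the total). The TMM factors were 1.316 to 1.477 in kidney and 0.626 to 0.783 in liver. On the scale of the printed CPM these bounds are therefore lower in kidney and higher in liver. They cover counting error only.

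Groups came from the labels. The quasi-likelihood test of edgeR 4.0.16 (R 4.3.3) was fitted to the 2 groups compared, with TMM factors, the filterByExpr filter and robust dispersions, with Benjamini-Hochberg adjustment over all genes tested and a threshold of 0.05, and the difference of the shFos change between tissues over all 16 libraries. Standard errors are the log2 fold change divided by the square root of the F value. DESeq2 1.42.0, other scalings and filters, a GC offset, a replicate block and leaving out each library were alternatives. The scripts were tested on simulated data. Printed CPM used TMM factors over all 16 libraries, and log2 CPM a prior count of 2. Nothing ties libraries to separate mice by name, so p-values measure the spread between these libraries. No pair of libraries agreed within sampling noise.

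Same-numbered NT kidneys and livers deviated together from their group means (r = 0.115, 0.290, 0.326 and 0.309 over genes), so numbers were taken as pairs there. The labels do not state the pairing. Kidney NT replicate 1 followed an NT liver of another number more closely. In the other comparisons at least 1 pair was under 0.1. In shFos, kidney replicates 1, 2 and 4 were closest to the liver of the same number, yet were not taken as pairs.

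The 9 genes, the 7 pathway lists and the 12 marker lists were chosen with earlier results of these data known, the lists from general knowledge. From each pathway list the text names the 2 genes with the smallest unadjusted p and the 2 highest per length in each tissue, and others are marked as chosen later. Gene models and coding sequences came from GENCODE M21 (GRCm38, the same assembly as mm10), which held 98.2% of the symbols, and promoter windows from RefSeq. Identity was computed on coding sequences in place of proteins. The AGGTCA search alone was added after the motifs were listed.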

Additional observations from a re-analysis of the deposited data

Results flagged for a closer look

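In each group of 4 libraries, the highest or lowest value was set against its gap to the nearest other library, and 15 of 154 groups of the members and named pathway genes passed Dixon's 95% critical value. Chance flags about 1 in 20 groups, and several flags share a library. Of the members, Aldh1a1 was at 64.3 CPM in kidney NT replicate 4 against 31.1 to 34.5 CPM in the other NT kidneys. Aldh1a7 was at 41.0 CPM in the same library against 12.7 to 16.1 CPM. Rdh16 was at 197 CPM in kidney shFos replicate 4 against 146 to 150.1 CPM.

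Kidney NT replicate 4 also stood apart for Fabp5 (6.16 CPM, the lowest), Pnpla2 (305 CPM), Adh1 (141 CPM) and Rxra (126 CPM), each the highest of its group except Fabp5. Its proximal tubule sum was the lowest of the 8 kidneys, and its part in these values was not tested.

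Liver NT replicate 4 was the lowest for Ttr, at 2552 CPM, and the highest for Aldh1a3, at 6.37 CPM. Kidney shFos replicate 1 had 58.4 CPM of Aldh1a3. Kidney shFos replicate 3 had 41.8 CPM of Ces1e, and kidney shFos replicate 2 had 199.97 CPM of Pnpla2. Ttr was at 61.4 CPM in kidney NT replicate 3, Lrp2 at 1.29 CPM in liver NT replicate 1, and Rara at 31.6 CPM in liver shFos replicate 4, each the highest of its group.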

How the results depend on the processing

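In kidney, shFos against NT gave 0 called genes with edgeR, 2663 with DESeq2, 994 in a fit of all 16 libraries and 3 without a filter on low counts. Leaving out each kidney library gave 0 to 4126 called genes, 4126 without kidney shFos replicate 1 and 3 without kidney NT replicate 4. Of the pathway genes 0 were called in kidney, 6 with DESeq2 and 0 to 12 with a library left out, 12 without kidney shFos replicate 1. In liver DESeq2 called 36 genes in place of 0. The difference of the shFos change between tissues gave 282 genes with DESeq2 and 0 to 1246 with a library left out, 1246 without kidney shFos replicate 1 and 1 without liver shFos replicate 2. Why single libraries and the tool moved these counts was not tested.

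For kidney against liver in NT the direction of Rdh16, which was not called, turned with library totals alone (log2 1.03), upper-quartile scaling (0.13), the replicate block (0.30), and without liver NT replicate 1 (0.20) or 2 (0.15), a range of -0.45 to 0.20 over the libraries left out. Rdh10 turned with library totals alone (0.65) and was then called higher in kidney. Leaving out libraries kept the count of members called at 7 to 8.

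With the replicate block shFos against NT still called 0 genes in kidney and 0 in liver, where same-numbered libraries did not deviate together, and with the block and a GC offset together also 0. For kidney against liver in NT the block called 9313 genes and 8 members, Rdh10 added, and changed no other member's call. In shFos it called 10036 genes.

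Fold changes of genes with few reads, such as Rdh7 and Rdh9 in kidney, are limited by depth. In the per-length orders 12 of 18 places were the same with the longest transcript.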
